A study of Mus musculus with 7 samples.

Results

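Genes of the neural tube and the neural crest, 31 in number, were described in 7 sorted cell populations of mouse embryos. The genes were listed by name, with earlier results of these data known. Every non-control probe of the Agilent array whose gene name is one of the 31 was taken, out of 27126 genes and 55681 probes in all. Shares over all genes are therefore set beside counts of the 31 as description only. By the array's own names 29 genes with 38 probes were found. Tfap2a and Tfap2b stand on the array under older names and were matched by transcript accession with 3 more probes, which gave 41 probes of 60 bases each. Of the 31 genes, 23 had 1 probe and 8 had several. By role they were 3 Sox factors of neural progenitors, 7 patterning factors of the neural tube, 4 proneural factors, 7 neuron genes, 2 proteins of radial glia and progenitors, and 8 factors and receptors of the neural crest.

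All 7 populations came from C57BL6J embryos with an Osr1-GFP knock-in, so the GFP-negative cells carried the same allele. Green fluorescent protein (GFP) reports Osr1, a transcription factor of the intermediate and lateral plate mesoderm from which the kidney forms. At E8.5 the embryo was sorted into cells with and without GFP. At E9.5 the caudal part of the embryo gave 3 populations: GFP-positive cells with Itga8 and without Pdgfra on their surface (called gated here), the other GFP-positive cells, and the GFP-negative cells. The E11.5 samples were taken from metanephric mesenchyme, which forms nephrons and renal stroma, and hold gated and other GFP-positive cells. GFP-negative cells of that stage were not analysed here. No treatment was given. How many embryos were pooled is not given in the sources used here. The study compared kidney precursors with the mesenchyme around them, and the neural genes were read on the same arrays.

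Each population had 1 array, made from 10 ng of amplified RNA. No replicate and no test was therefore possible, and each fold below compares a pair of arrays. How much embryos or sorts vary is unknown. A level is a probe's log2 signal relative to that of the 75th percentile on the same array. Levels of different probes are not set against each other. Probes spotted 10 times gave a log2 SD of 0.10 among the spots of an array, and 0.14 for a difference. These cover the noise of spots and nothing else. A gene with several probes is counted through the probe with the highest mean level, and a difference is counted from 2-fold. Where 1 array of a comparison was not well above background, that dim side was set at the lowest level that was, or at its own if higher, and the fold is written "at least". Fewer cells of a type and less RNA per cell cannot be told apart in such bulk samples.

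The neural tube is the embryonic rudiment of the brain and spinal cord. Its dividing progenitors carry the SoxB1 factors Sox1, Sox2 and Sox3, and patterning factors such as Olig2, Nkx2-2 and Dbx1 divide them into domains along the dorsoventral axis. Proneural factors of the Neurog and Neurod families, which bind the E-box, start the passage from progenitor to neuron, and neurons then switch on cytoskeletal and RNA-binding proteins such as Tubb3 and Elavl3. Neural crest cells leave the dorsal neural tube under factors such as Snai2, Sox9, Sox10 and Tfap2a and form peripheral neurons, glia and other cell types. Several of these genes also act outside the nervous system, Sox9 in cartilage and Snai2 in mesenchyme.

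The sequences of 4 pairs of probes are shown first, because the probes of a pair read the same gene and gave different patterns over the arrays. Each line gives bases 31 to 60 of the 60-base probe, 5′ to 3′, with the capitals marking runs of at least 4 G or C in the Sox1 probes and the TG repeat in an Elavl4 probe. The Zic1 and Tfap2a stretches have no capitals.
Zic1, starting at base 1864 of its transcript: cacgcaccccagctctctgcgtaaacacat
Zic1, starting at base 3048: gttacagctattcaatatttatggctagta
Sox1, starting at base 1984: ctaGCGCCGCGGGGaCGCCGGGGacactgc
Sox1, starting at base 3977: aggtaataaaagaacaCCCCtccctttttc
Elavl4, starting at base 1818: ttaagatgaccattcgctcatttgaagaag
Elavl4, starting at base 2921: TGTGTGTGTGtatgtgtacatataatataa
Tfap2a, starting at base 93: gacggataatatcaagtacgaagactgcga
Tfap2a, starting at base 3054: ttgcccagataaataaatatttgatacgct

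Coordinates are those of the array files, on mm9 (NCBI37), with the strand of the transcript. The Zic1 probes lie at chr9:91257301-91257360 and chr9:91255425-91255484, both minus strand. The Sox1 probes lie at chr8:12397503-12397562 and chr8:12399496-12399555, plus strand, the Elavl4 probes at chr4:109878558-109878617 and chr4:109877455-109877514, minus strand, and the Tfap2a probes at chr13:40829040-40829099 and chr13:40811044-40811103, minus strand. G and C made up 73.3% of the whole Sox1 probe that starts at base 1984 and 43.3% of the other. The Elavl4 probe that starts at base 2921 holds the dinucleotide TG 10 times and the other 4 times.

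Promoters are shown for 4 genes picked from these data: Prdm8 and Neurog2, well above background on the E9.5 GFP-negative array alone, and Tfap2b and Sox2. Among genes with a matched promoter, these had the largest excess on that array over the next highest array, with dim sides set as above. Each promoter is the 250 bases before the gene's start in the RefSeq annotation of GRCm38.p6, plus strand, 5′ to 3′. Capitals mark the E-box, CANNTG, and the SOX motif, ACAAAG or its reverse complement CTTTGT.
Prdm8, chr5:98180619-98180868: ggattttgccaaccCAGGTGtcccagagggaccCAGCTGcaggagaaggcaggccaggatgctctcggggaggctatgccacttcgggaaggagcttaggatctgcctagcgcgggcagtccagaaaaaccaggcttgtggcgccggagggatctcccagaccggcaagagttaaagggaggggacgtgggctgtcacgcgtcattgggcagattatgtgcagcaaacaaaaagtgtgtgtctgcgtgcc
Tfap2b, chr1:19211804-19212053: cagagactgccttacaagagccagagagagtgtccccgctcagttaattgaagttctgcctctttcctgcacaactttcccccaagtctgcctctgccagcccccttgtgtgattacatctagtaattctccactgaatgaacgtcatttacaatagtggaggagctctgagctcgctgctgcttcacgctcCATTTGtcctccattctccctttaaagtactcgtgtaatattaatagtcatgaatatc
Neurog2, chr3:127632886-127633135: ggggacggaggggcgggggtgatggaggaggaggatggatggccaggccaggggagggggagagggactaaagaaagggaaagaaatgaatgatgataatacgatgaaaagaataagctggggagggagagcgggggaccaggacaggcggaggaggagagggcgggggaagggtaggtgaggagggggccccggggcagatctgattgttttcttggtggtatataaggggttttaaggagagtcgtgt
Sox2, chr3:34649745-34649994: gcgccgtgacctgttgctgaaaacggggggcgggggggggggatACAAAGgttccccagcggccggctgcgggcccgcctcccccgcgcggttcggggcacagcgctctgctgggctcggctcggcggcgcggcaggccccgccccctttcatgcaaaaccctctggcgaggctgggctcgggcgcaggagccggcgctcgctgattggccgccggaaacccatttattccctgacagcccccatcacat

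RefSeq promoters were matched for 24 of the 31 genes. Searched on both strands, the E-box CANNTG stood in the 250 bases of 11 of the 24 genes and of 69.3% of all 27025 genes. Its form CAGCTG, which is also counted in the E-box, stood in 5 of the 24 and in 14.7% of all genes. The SOX motif stood in 3 of the 24, Sox2, Dbx1 and Dcx, and in 18.6% of all genes. By promoter, the shares of all 32851 were 66.2%, 13.0% and 16.5%. Prdm8 holds 2 E-boxes in this stretch, Tfap2b 1, and Neurog2 and Sox2 none. A match is a stretch of letters only.

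Over the 7 arrays the neural genes were most often highest in the E9.5 GFP-negative cells. There 22 of the 31 genes had their highest level, a count that was not made over all genes. All 31 were well above background there, against 75.6% of all genes. On the other arrays 22 to 27 of the 31 were well above background: 26 (E8.5 GFP-positive, where 72.9% of all genes were), 22 (E8.5 GFP-negative, 60.3%), 26 (E9.5 gated, 74.4%), 27 (E9.5 other GFP-positive, 85.4%), and 22 at E11.5 in gated cells (74.5%) and in the other cells (75.6%). A level at least 2-fold above each of the other 6 arrays was found in the E9.5 GFP-negative cells for 16 genes, where 0.837% of all measured genes had one. The 16 were Sox2, Sox3, Olig2, Nkx2-2, Nkx6-1, Dbx1, Zic1, Prdm8, Neurog1, Neurog2, Neurod4, Tubb3, Pou4f1, Fabp7, Sox10 and Tfap2b. Counting every probe, 20 of the 39 probes measured anywhere had this pattern (0.768% of all measured probes), which added Sox1, Neurod1 and Elavl4 and made 19 genes. In the E11.5 gated cells Dcx and Ngfr stood at least 2-fold above each of the other 6 arrays, where 0.873% of all genes did, and on the other 5 arrays none of the 31 did. Of all genes, 0.588% did so on the E8.5 GFP-positive array, 1.82% on the E8.5 GFP-negative, 0.592% on the E9.5 gated, 0.592% on the E9.5 other GFP-positive and 1.76% on the E11.5 other GFP-positive array.

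**Figure D1:**
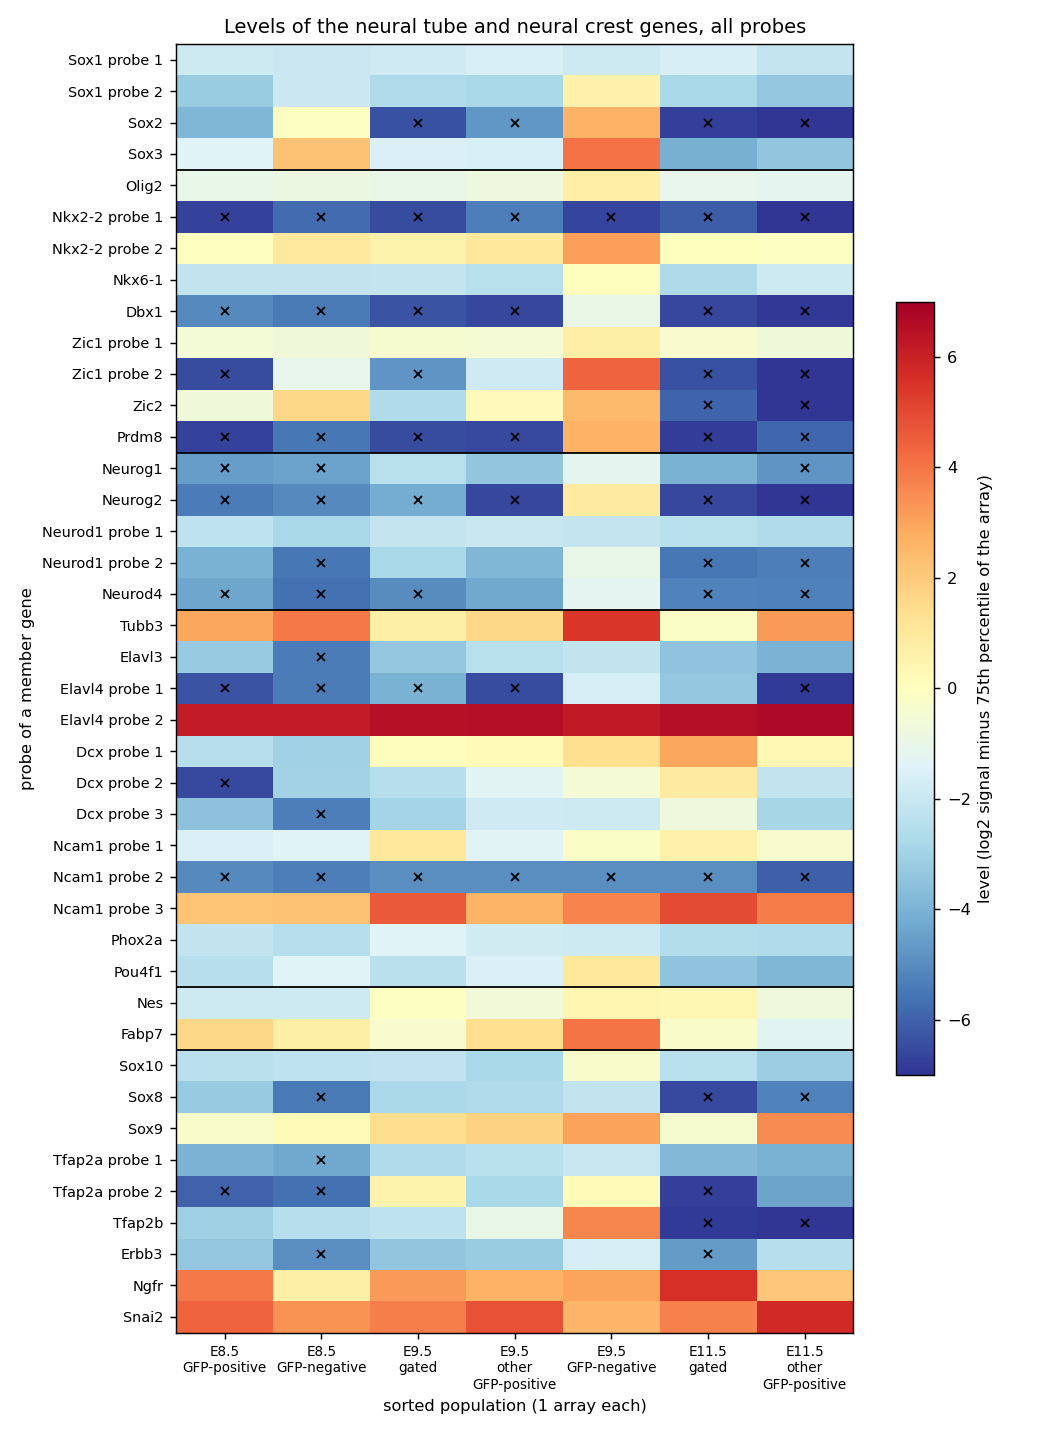
Level of each of the 41 probes (rows, grouped by role, probes of 1 gene numbered from the 5′ end of the transcript) in the 7 sorted populations (columns, 1 array each), in log2 units relative to the 75th percentile of the array; a cross marks a probe not well above background. The E9.5 GFP-negative column holds the highest level of 22 of the 31 genes, each counted through 1 probe, a count not made over all genes. The Elavl4 probe 2 lies between 6.14 and 6.70 on every array.

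The sort was checked on its own genes. Osr1 stood at 0.85 and -3.23 at E8.5, 1.03, -0.08 and -4.38 at E9.5, and 1.63 and -1.80 at E11.5, and was not well above background in either GFP-negative population. Itga8, the integrin of the gate, stood at -0.87 and -1.96 at E8.5, 2.15, 0.20 and -1.31 at E9.5, and 2.82 and -1.31 at E11.5. Pdgfra, the receptor excluded by the gate, stood at 3.40 and 2.02 at E8.5, -0.52, 3.44 and 1.99 at E9.5, and -5.92 and 4.04 at E11.5, and was not well above background in the E11.5 gated cells. Within each stage from E9.5 on, the gated cells had the higher Itga8 and the lower Pdgfra of the 2 GFP-positive populations. Here and below, the E8.5 values are for cells with GFP and then without, and later values are for gated, then other GFP-positive and then, at E9.5, GFP-negative cells.

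At E9.5 most of the neural genes were lower in both GFP-positive populations than in GFP-negative cells of the same stage. In gated cells 21 of 31 were at least 2-fold lower (6.42% of 21492 measured genes) and 1, Snai2, was higher (5.67% of genes), with a median log2 difference of -1.76 against 0.01 over all genes. In the other GFP-positive cells 22 of 31 were lower (5.18% of 23736 genes) and 1, again Snai2, was higher (8.57%), with a median of -1.56 against 0.13. Of these differences, 5 in gated and 4 in other GFP-positive cells were bounds, which could not come out higher. With both arrays well above background, 16 of 26 were lower in gated cells, beside 867 of 19209 genes. In other GFP-positive cells 18 of 27 were, beside 948 of 19935 genes. Both comparisons use the same GFP-negative array, so their values are given side by side and not as 2 separate observations. The gated and GFP-negative arrays shared a slide, and the other GFP-positive array was on the other slide.

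All 3 Sox factors of neural progenitors had their strongest signal in the E9.5 GFP-negative cells on at least 1 probe. Sox2, which keeps neural progenitors dividing, stood at -3.84 and -0.07 at E8.5, -6.37, -4.71 and 2.65 at E9.5, and -6.78 and -7.09 at E11.5 (probe at chr3:34550773-34550832, plus strand). It was well above background in E8.5 cells and E9.5 GFP-negative cells and on none of the other 4 arrays. Against the E9.5 GFP-negative cells it was at least 153-fold lower in gated and at least 154-fold lower in other GFP-positive cells. Sox3, its close relative on the X chromosome, stood at -1.38 and 2.22 at E8.5, -1.49, -1.54 and 4.07 at E9.5, and -4.08 and -3.42 at E11.5. Here every array was well above background, and the 2 GFP-negative populations were the only ones with a level above 0. Sox3 was 47.1-fold lower in gated and 48.6-fold lower in other GFP-positive cells than in GFP-negative cells of E9.5. For Sox1, a factor of early neural cells, the probe starting at base 3977 stood at -3.20 and -1.92 at E8.5, -2.64, -2.80 and 0.55 at E9.5, and -2.81 and -3.38 at E11.5. On it, gated cells were 9.12-fold and other GFP-positive cells 10.2-fold lower than GFP-negative cells. The Sox1 probe starting at base 1984, whose GC-rich sequence is printed above and which represents the gene in the counts, stayed between -2.09 and -1.58 over the 7 arrays.

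Among the 7 patterning factors, 7 of 7 were lower in gated and 7 of 7 in other GFP-positive cells than in GFP-negative cells. Prdm8, a zinc-finger repressor of transcription in the developing nervous system, was well above background only in E9.5 GFP-negative cells, at 2.66 (probe at chr5:98616387-98616446, plus strand). That was at least 155-fold above gated and at least 156-fold above other GFP-positive cells, and its promoter is the first of the 4 shown above. Dbx1, a homeobox gene of a narrow intermediate domain, was likewise read in these cells alone, at -0.95, at least 12.6-fold and at least 12.7-fold above the 2 GFP-positive populations. The ventral genes had smaller differences. Nkx2-2, of the domain next to the floor plate, stood at -0.04 and 0.97 at E8.5, 0.55, 0.99 and 3.11 at E9.5, and 0.05 and -0.10 at E11.5, a 5.93-fold and a 4.36-fold difference at E9.5, and its second probe was not well above background on any array. Nkx6-1, a factor of the ventral progenitors, stood at -2.15 and -2.17 at E8.5, -2.12, -2.43 and 0.02 at E9.5, and -2.68 and -1.89 at E11.5, and at E9.5 was 4.38-fold lower in gated and 5.47-fold lower in the other GFP-positive cells. Olig2, required for motor neuron progenitors, stood at -1.03 and -0.84 at E8.5, -1.02, -0.78 and 0.75 at E9.5, and -1.05 and -1.18 at E11.5, and at E9.5 was 3.42-fold lower in gated and 2.88-fold lower in the other GFP-positive cells. For all 3 the E9.5 GFP-negative cells were highest and the other 6 arrays lay within 1.93 (Olig2) to 3.21 (Nkx2-2) log2 units of them.

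The Zic genes, zinc-finger factors of the dorsal neural tube that are also read in somites, were less uniform. On the Zic1 probe starting at base 3048 the levels were -6.50 and -1.09 at E8.5, -4.76, -1.82 and 4.40 at E9.5, and -6.39 and -6.98 at E11.5. This probe was well above background in both GFP-negative populations and in the E9.5 other GFP-positive cells, and the E9.5 GFP-negative cells stood 45.0-fold above the next array. The Zic1 probe starting at base 1864 ran from -0.70 to 0.67, with a 2.14-fold and a 2.24-fold difference at E9.5, so both probes had the same highest array with differences of unlike size. Zic2 stood at -0.67 and 1.59 at E8.5, -2.67, 0.13 and 2.46 at E9.5, and -5.96 and -7.06 at E11.5. It was 35.0-fold lower in gated and 5.02-fold lower in other GFP-positive than in GFP-negative cells of E9.5, and not well above background in either E11.5 population.

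Proneural factors were low on most arrays. Neurog2, which starts neuron formation in the spinal cord, was well above background only in E9.5 GFP-negative cells, at 0.90, at least 33.7-fold above gated and at least 45.9-fold above other GFP-positive cells. Neurod4, which acts downstream of the Neurog factors, stood at -1.20 there and at -4.28 in other GFP-positive cells, and on none of the other 5 arrays was it well above background. Neurog1, the relative of Neurog2 used in sensory ganglia, stood at -4.56 and -4.47 at E8.5, -2.45, -3.41 and -1.18 at E9.5, and -4.02 and -4.81 at E11.5, and was not well above background at E8.5 or in the other GFP-positive cells of E11.5. Its gated level at E9.5 was 2.40-fold and its other GFP-positive level 4.69-fold below that of GFP-negative cells. The Neurod1 probe starting at base 1611 stood at -1.0 in E9.5 GFP-negative cells, 3.52-fold above gated and 7.31-fold above other GFP-positive cells. The other Neurod1 probe, at base 923, ran between -2.83 and -2.06 over all arrays and differed by 0.04 and 0.07 log2 units in these comparisons.

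The neuron genes had 4 of 7 lower in gated and 4 of 7 lower in other GFP-positive than in GFP-negative cells. Tubb3, the neuronal class of beta-tubulin, stood at 2.92 and 3.89 at E8.5, 0.67, 1.62 and 5.46 at E9.5, and -0.22 and 3.22 at E11.5. It was 27.8-fold lower in gated and 14.4-fold lower in other GFP-positive than in GFP-negative cells at E9.5. Pou4f1, a homeodomain factor of sensory neurons, stood at -2.47 and -1.39 at E8.5, -2.36, -1.50 and 1.01 at E9.5, and -3.47 and -3.85 at E11.5, and at E9.5 was 10.3-fold lower in gated and 5.72-fold lower in the other GFP-positive cells. Both genes were highest in the E9.5 GFP-negative cells. Elavl3, an RNA-binding protein of neurons, stood at -3.23 and -5.41 at E8.5, -3.36, -2.41 and -2.17 at E9.5, and -3.47 and -3.95 at E11.5. It was 2.27-fold lower in gated cells and differed by -0.24 log2 units in other GFP-positive cells. Its relative Elavl4 stood at 6.15 and 6.14 at E8.5, 6.50, 6.53 and 6.20 at E9.5, and 6.55 and 6.70 at E11.5 on the probe with the TG repeat, within 0.57 log2 units over all arrays. On the probe starting at base 1818, Elavl4 was well above background in the E9.5 GFP-negative cells, at -1.69, and in the E11.5 gated cells, at -3.35, alone. Phox2a, a factor of autonomic neurons, ranged from -2.65 to -1.42 and stayed within 2-fold in all 3 comparisons at E9.5.

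**Figure D2:**
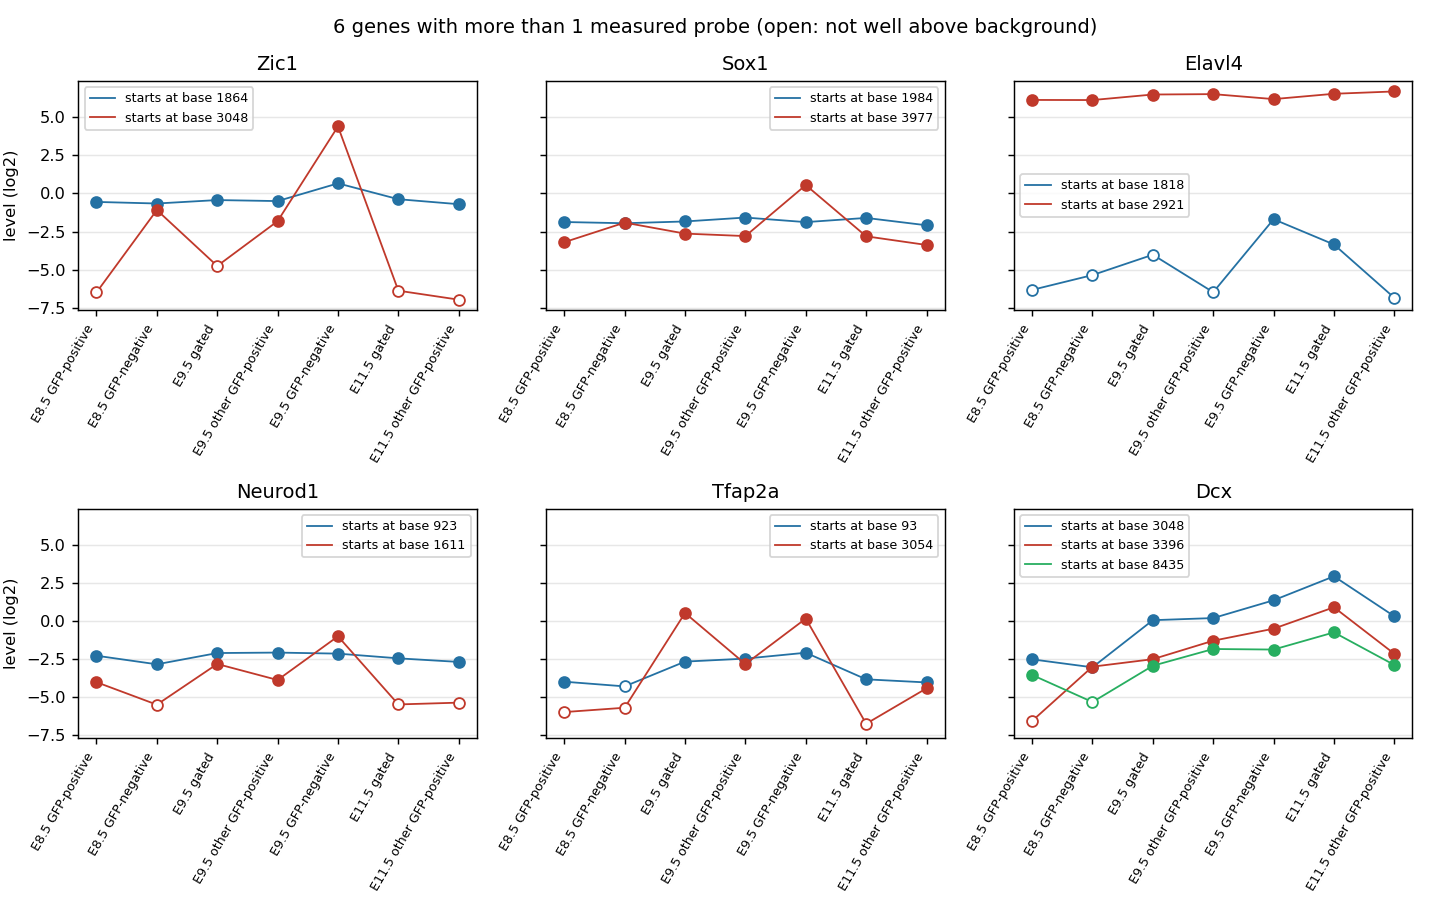
Level (y axis, log2 units relative to the 75th percentile of the array) of each probe of 6 genes in the 7 sorted populations (x axis, 1 array each); colours mark probes by where they start in the transcript, open points were not well above background, and lines only join points of 1 probe. The Elavl4 probe at base 2921 and the Sox1 probe at base 1984 are nearly level, while the Zic1 probe at base 3048 reaches 4.40 in E9.5 GFP-negative cells.

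A pair of neuron genes had another order. Ncam1, a cell adhesion molecule of neurons that forming nephrons also carry, stood at 2.14 and 2.22 at E8.5, 4.62, 2.61 and 3.67 at E9.5, and 4.95 and 3.85 at E11.5 on the probe that starts at base 6856. Gated cells were higher than the other cells of the same stage at E9.5 and at E11.5, and differed from E9.5 GFP-negative cells by 0.95 log2 units. Another Ncam1 probe, at base 2012, stood at -1.52 and -1.40 at E8.5, 1.02, -1.33 and -0.20 at E9.5, and 0.61 and -0.37 at E11.5, with the same order at both stages, and the last was dim on every array. Dcx, a microtubule-binding protein of young migrating neurons, stood at -2.51 and -3.03 at E8.5, 0.07, 0.20 and 1.37 at E9.5, and 2.95 and 0.32 at E11.5 on the probe at base 3048. It was highest in the E11.5 gated cells on all 3 of its probes, where the probes at bases 3396 and 8435 stood at 0.91 and -0.74. At E9.5, GFP-negative cells were 2.47-fold above gated and 2.25-fold above other GFP-positive cells on the first of these probes. On the probe at base 3396 they were 4.01-fold and 1.73-fold above these populations. On the probe at base 8435 they were 2.09-fold above gated cells and differed from other GFP-positive cells by 0.04 log2 units, so the second difference was past 2-fold on 1 of the 3 probes.

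Of the 2 proteins of radial glia and progenitors, Fabp7, a fatty acid binding protein of radial glia, stood at 1.62 and 0.70 at E8.5, -0.35, 1.38 and 4.0 at E9.5, and -0.25 and -1.31 at E11.5. It was 20.5-fold lower in gated and 6.17-fold lower in other GFP-positive than in GFP-negative cells of E9.5. Nes, the intermediate filament nestin of progenitors in many tissues, stood at -1.91 and -1.88 at E8.5, -0.08, -0.63 and 0.38 at E9.5, and 0.33 and -0.74 at E11.5, with differences of -0.46 and -1.02 log2 units. The E9.5 GFP-negative and E11.5 gated levels of Nes were 0.38 and 0.33, which is within spot noise.

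**Figure D3:**
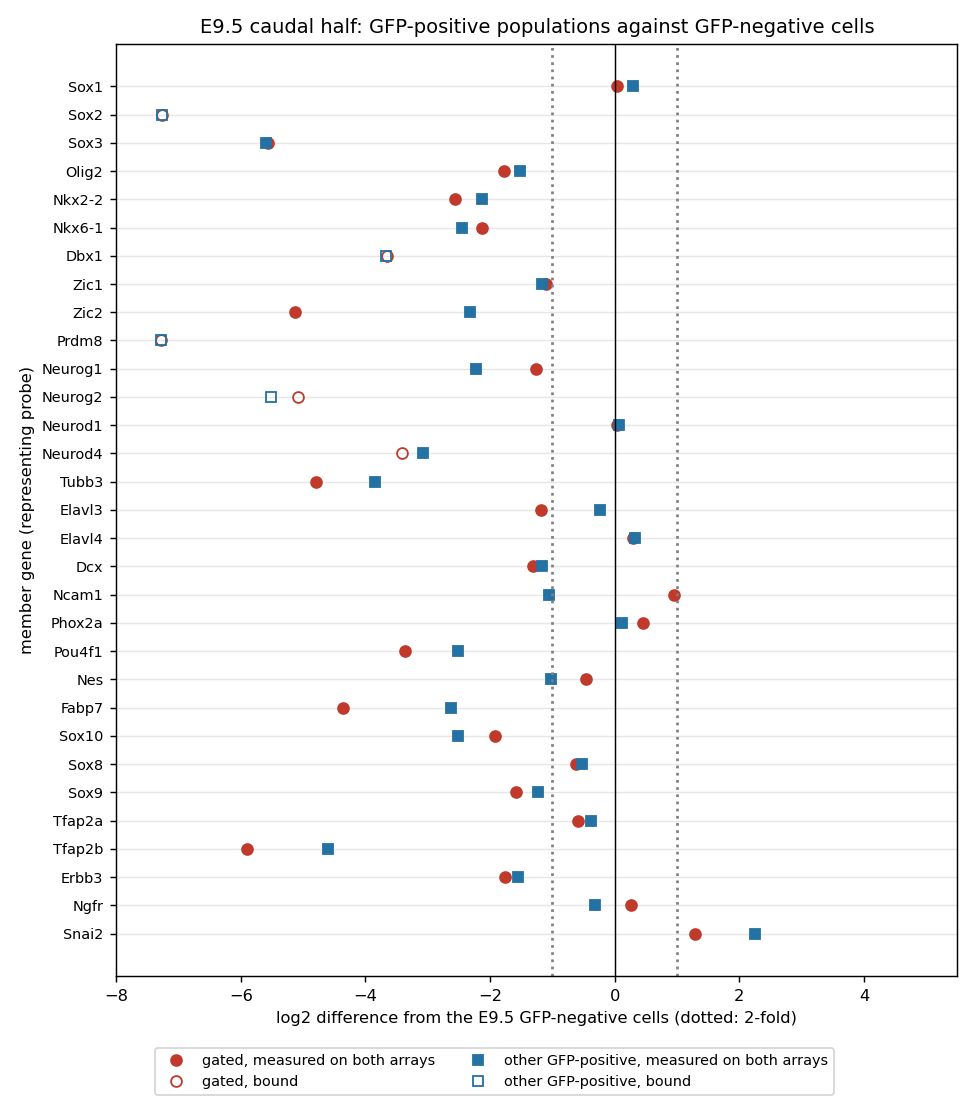
Log2 difference (x axis) of gated cells (circles) and other GFP-positive cells (squares) from GFP-negative cells of E9.5, for the representing probe of each of the 31 genes (y axis); open symbols are bounds and dotted lines mark 2-fold. Most symbols lie to the left of the lower dotted line, and Snai2 alone lies to the right of the upper one, at 1.29 and 2.25.

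The neural crest genes were mixed. Of these 8, 4 were lower and 1 higher in gated than in GFP-negative cells of E9.5, and 4 lower and 1 higher in other GFP-positive cells. Tfap2b, an AP-2 factor of crest and sympathetic neurons that also acts in the kidney tubule, stood at -3.09 and -2.49 at E8.5, -2.29, -0.99 and 3.61 at E9.5, and -6.84 and -7.15 at E11.5 (probe at chr1:19228555-19228614, plus strand). It was 59.6-fold lower in gated and 24.4-fold lower in other GFP-positive cells, and not well above background in either E11.5 population. Sox10, the factor that keeps migrating crest and glia in their state, stood at -2.35 and -2.29 at E8.5, -2.23, -2.83 and -0.31 at E9.5, and -2.43 and -3.13 at E11.5, and at E9.5 was 3.78-fold lower in gated and 5.73-fold lower in the other GFP-positive cells. Erbb3, the neuregulin receptor of Schwann cell precursors, stood at -3.36 and -4.97 at E8.5, -3.41, -3.21 and -1.66 at E9.5, and -4.63 and -2.46 at E11.5, and at E9.5 was 3.38-fold lower in gated and 2.94-fold lower in the other GFP-positive cells. Both were highest in E9.5 GFP-negative cells, and Erbb3 was next highest in the other GFP-positive cells of E11.5. Sox8, a relative of Sox10, stood at -3.28 and -5.46 at E8.5, -2.77, -2.67 and -2.14 at E9.5, and -6.52 and -5.21 at E11.5. It was lower by less than 2-fold in both populations, at log2 differences of -0.63 and -0.53, and was dim, as defined above, in E8.5 GFP-negative cells and at E11.5.

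Sox9 and Ngfr were spotted 10 times on each array, with an SD over spots of 0.050 to 0.14 for Sox9 and 0.034 to 0.072 for Ngfr on the log2 scale. Sox9, a factor of early crest and of cartilage, stood at -0.29 and 0.20 at E8.5, 1.43, 1.78 and 3.01 at E9.5, and -0.43 and 3.52 at E11.5. At E9.5 it was 3.00-fold lower in gated and 2.36-fold lower in other GFP-positive than in GFP-negative cells, yet its highest level was in the E11.5 other GFP-positive cells. Ngfr, the low-affinity neurotrophin receptor used to sort crest cells, stood at 3.92 and 0.68 at E8.5, 3.22, 2.64 and 2.96 at E9.5, and 5.58 and 2.13 at E11.5. Its E9.5 levels were within 2-fold of each other in all 3 comparisons, and the E11.5 gated cells were highest. Snai2, a repressor of epithelial genes in crest and mesenchyme, stood at 4.40 and 3.37 at E8.5, 3.81, 4.77 and 2.53 at E9.5, and 3.73 and 5.75 at E11.5. The E9.5 GFP-negative cells had the lowest Snai2 of all 7 arrays, 2.44-fold below gated and 4.74-fold below other GFP-positive cells. Tfap2a, an AP-2 factor of crest and surface ectoderm, stood at -5.97 and -5.69 at E8.5, 0.54, -2.82 and 0.17 at E9.5, and -6.74 and -4.41 at E11.5 on the probe at base 3054. This probe was 10.2-fold higher in gated than in other GFP-positive cells of E9.5 and close to the GFP-negative level, with a difference of 0.37 log2 units. On the probe at base 93, Tfap2a levels at E9.5 were -2.66, -2.46 and -2.07, all within 2-fold.

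Other genes of the nervous system and of nearby tissues differed in the same comparisons. Of 12 further neural tube progenitor genes, 10 were measured and 7 were lower in gated and 7 in other GFP-positive than in GFP-negative cells, with none higher. Hes5, a Notch target of progenitors, was 32.7-fold and 28.0-fold lower, and Pax6 3.29-fold and 4.55-fold lower. Of 19 further neuron genes, 7 of 18 were lower in gated and 11 of 18 in other GFP-positive cells, with none higher. Nhlh2, a helix-loop-helix factor of new neurons, was at least 96.1-fold and 43.9-fold lower, and Stmn2, a neuronal stathmin, at least 16.6-fold and 13.2-fold lower. Of 15 further crest and glia genes, 7 of 14 were lower and 0 higher in gated cells, and 6 of 15 lower and 2 higher in other GFP-positive cells. Ednrb, an endothelin receptor of crest, was 10.4-fold and 12.1-fold lower. The 2 higher in other GFP-positive than in GFP-negative cells were Snai1, at -1.58 against -3.47, and Twist1, at 2.96 against 1.48. Twist1 was also counted among the stromal genes.

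GFP-negative cells held other cell types as well. All 8 red blood cell genes were lower in gated and in other GFP-positive cells than in GFP-negative cells at E9.5, and lower in GFP-positive than in GFP-negative cells at E8.5. Their mean level was 6.50 and 4.84 in the GFP-negative populations of E8.5 and E9.5, and between -4.16 and -1.20 in the 5 others. Tail bud genes had 5 of 7 lower in gated and 4 of 7 lower in other GFP-positive cells, with T, the notochord and tail bud factor Brachyury, at least 12.4-fold and at least 11.8-fold lower. Further lists went both ways. In gated cells 5 of 7 endoderm genes were lower and 1 higher, with 5 of 10 surface ectoderm and 4 of 9 stromal genes lower and 0 higher. In other GFP-positive cells 2 of 9 endoderm genes were lower and 2 higher. There 1 of 10 surface ectoderm genes was lower and 3 higher, and 1 of 9 stromal genes lower and 5 higher. Whether the mixture of cell types had a part in the level of any single neural gene was not tested.

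Between the 2 GFP-positive populations of E9.5 the shares of neural genes past 2-fold lay near those of all genes. Of 27 measured genes, 1 was at least 2-fold higher (5.14% of 23612 genes) and 3 were lower (9.38%) in gated cells, with a median of -0.20 against -0.15. Ncam1 was 4.01-fold higher in gated cells. Zic2, Fabp7 and Tfap2b were 6.97-fold, 3.32-fold and 2.45-fold lower. Neurog1 and Snai2 came close to 2-fold, at 0.96 and -0.96 log2 units. Tubb3, at 0.67 in gated and 1.62 in other cells, and Elavl3, at -3.36 and -2.41, were also lower in gated cells by just under 2-fold. Quantile normalization gave 2 higher and 3 lower, and counting every probe gave 3 higher and 5 lower. Over all genes these settings gave 1952 higher and 1832 lower of 23612, and 1489 and 2800 of 23657. Red blood cell genes had 4 of 7 lower and 1 higher in gated cells, and their part in these values was not tested. The slide differed as well and cannot be told apart from the population.

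At E8.5, when the neural plate is closing, 26 of the 31 genes were measured in GFP-positive against GFP-negative cells. Ngfr and Snai2 were higher, which is 2 genes (7.03% of 20109 genes), and Sox2, Sox3, Zic2, Nkx2-2 and Pou4f1 were lower, which is 5 (6.11%). The median was 0.0039 against 0.0 over all genes. Sox2 was 13.6-fold, Sox3 12.1-fold and Zic2 4.78-fold lower in GFP-positive cells, and Nkx2-2 and Pou4f1 lay near the 2-fold line at -1.01 and -1.08 log2 units. On the Zic1 probe at base 3048 the GFP-positive cells were at least 16.1-fold lower. Ngfr was 9.46-fold and Snai2 2.05-fold higher. Without scaling between arrays 3 genes were higher and 3 lower, with normexp background correction 2 were higher and 3 lower, and counting every probe 2 were higher and 8 lower. Over all 20109 genes the first of these settings gave 1836 higher and 1052 lower, and normexp 615 and 519. Counting every probe gave 1671 and 1523 of 20165 genes.

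From E8.5 to E9.5 the GFP-negative cells had higher levels of most of the neural genes. All 31 were measured, 25 were at least 2-fold higher at E9.5 (8.85% of 20769 genes) and none was lower (6.25% of genes), with a median log2 difference of 1.98 against 0.00. Of the 31 differences, 9 were bounds for genes dim at E8.5, which could not come out lower. With both arrays well above background, 16 of 22 genes were higher and 0 lower, beside 1229 higher and 1044 lower of 16088 genes. The 6 within 2-fold on their representing probes were Sox1, Zic2, Neurod1, Elavl4 and Phox2a, and Snai2 at -0.84. On its other probe Sox1 was 5.53-fold higher, at -1.92 and 0.55. The other Neurod1 probe and the Elavl4 probe at base 1818 stood at -1.0 and -1.69 at E9.5 and were not well above background at E8.5. Counting every probe, 28 genes were higher and 0 lower, beside 2179 higher and 1557 lower of 20826 measured genes. The largest differences among the representing probes were those of Prdm8, at least 69.7-fold higher, and of Tfap2b, 68.5-fold higher. Dcx was 21.2-fold, Neurog2 at least 20.5-fold, Fabp7 9.89-fold, Sox9 7.01-fold, Sox2 6.58-fold, Sox3 3.60-fold and Tubb3 2.98-fold higher. Of the further lists, 5 of 10 progenitor genes, 10 of 18 neuron genes and 6 of 13 crest and glia genes were higher, Hes5 by 7.96-fold. Of the crest and glia genes 1 was lower. Outside the neural lists, 4 of 9 stroma and mesenchyme genes were higher and 0 lower, while 0 of 9 endoderm genes were higher and 4 lower. Tail bud genes had 0 of 7 higher and 1 lower, and surface ectoderm genes 2 of 10 higher and 2 lower. Nephron progenitor and nephric duct genes each had 1 of 7 higher and 1 lower, and cartilage genes 2 of 7 higher and 2 lower. The E8.5 cells came from the embryo and the E9.5 cells from its caudal part, on different slides, so stage, region and slide cannot be told apart. Red blood cell genes went the other way, with a mean level of 6.50 at E8.5 and 4.84 at E9.5, and their part in this difference was not tested.

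**Figure D4:**
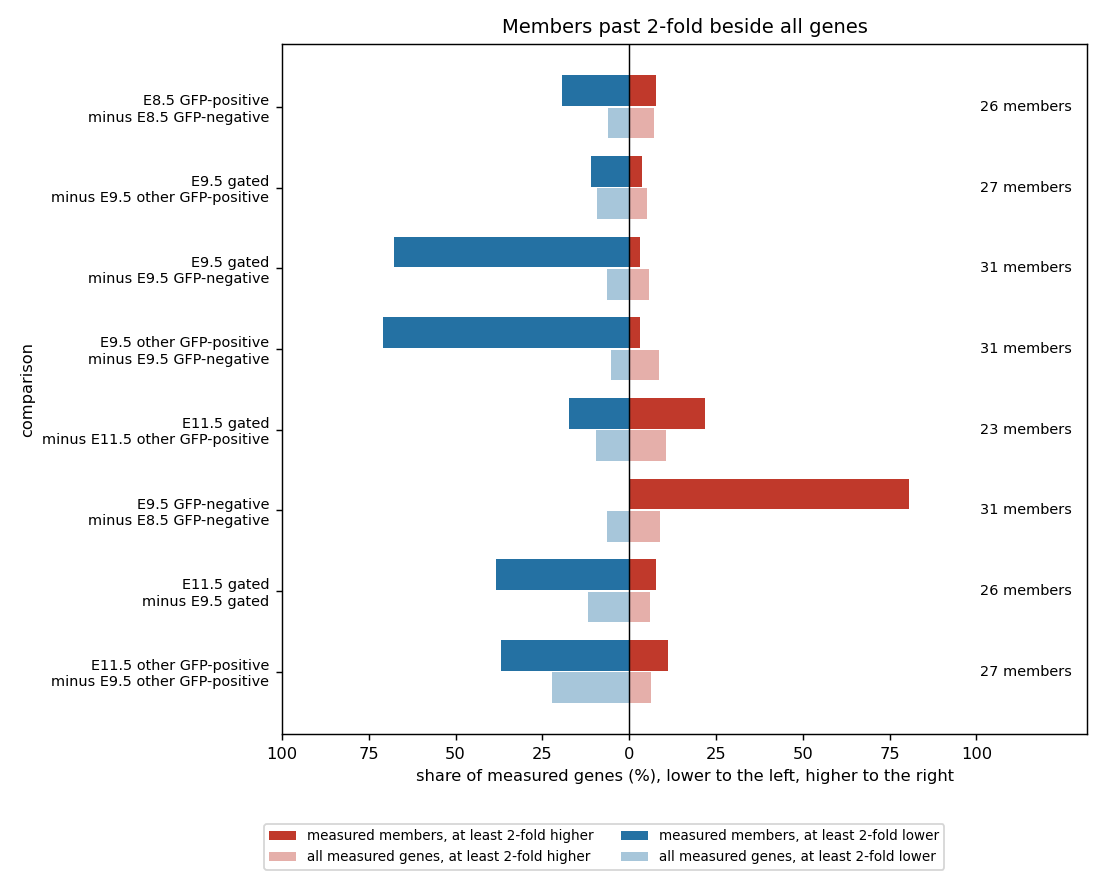
Share of measured genes at least 2-fold higher (right) or lower (left) in the first population than in the second (x axis, percent) for 8 comparisons (y axis); dark bars are the 31 neural genes, with the number measured at the right edge, and pale bars all measured genes. The longest dark bar is that of E9.5 against E8.5 GFP-negative cells, with 25 of 31 genes higher.

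The pale bars depend on the scaling between arrays. Of all genes past 2-fold, the share that was higher moved from 53.5% to 63.6% without scaling at E8.5. It moved from 35.4% to 51.6% with quantile normalization and 50.7% with normexp for gated against other GFP-positive cells of E9.5, and from 46.9% to 30.7% without scaling for gated against GFP-negative cells. For other GFP-positive against GFP-negative cells of E9.5 it was 62.3%, and 43.2%, 42.6% and 41.7% with normexp, with quantile normalization and without scaling. At E11.5 it was 52.7%, and 42.4% with quantile normalization and 35.3% without scaling. For GFP-negative cells of E9.5 against E8.5 it was 58.6%, and 47.9% with quantile normalization and 83.4% without scaling, which moved the median of all genes by 0.35. Across the stages it moved from 33.7% to 44.6% with normexp and 46.1% with quantile normalization in gated cells. In other GFP-positive cells it moved from 22.4% to 40.6%, 52.9% and 33.1% with normexp, with quantile normalization and without scaling. The counts of neural genes against GFP-negative cells of E9.5 were 21 and 22 lower with quantile normalization and without scaling, as above, and 17 and 18 with normexp. Over all 21492 and 23736 genes, 1541 and 2044 were lower with quantile normalization, 1887 and 1758 without scaling, and 485 and 390 with normexp.

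In the metanephric mesenchyme of E11.5 the neural genes went both ways. Of 23 measured genes, Dcx, Ngfr, Ncam1, Nes and Fabp7 were higher in gated than in the other GFP-positive cells, which is 5 (10.5% of 21711 genes), and Tubb3, Sox9, Erbb3 and Snai2 were lower, which is 4 (9.43%). The median was 0.24 against 0.15 over all genes. Ngfr was 10.9-fold higher in gated cells. Dcx was 6.18-fold, 8.32-fold and 4.41-fold higher on its probes at bases 3048, 3396 and 8435. Ncam1, Nes and Fabp7 lay just past 2-fold, at 1.10, 1.07 and 1.06 log2 units, and these 3 lay within 2-fold under both of the following settings. Without scaling between arrays 2 genes were higher and 5 lower, and with normexp background correction 2 were higher and 3 lower. Over all 21711 genes these settings gave 1489 higher and 2735 lower, and 738 and 834. Sox9 was 15.4-fold, Tubb3 10.8-fold, Erbb3 at least 4.49-fold and Snai2 4.06-fold lower in gated cells.

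Genes of neurons outside the 31 were split in the same comparison. Stmn2, Gap43 and Map2, which serve the axon and its cytoskeleton, were 58.1-fold, 21.4-fold and 3.82-fold lower in gated cells, and Elavl2, an RNA-binding protein, was 5.41-fold higher. In all, 3 of 17 further neuron genes were higher and 3 lower. The sort itself showed in the lists of its tissues, with 8 of 10 nephron progenitor genes higher and 9 of 9 stromal genes lower in gated cells, lists that include the sort genes Osr1 and Itga8, and Pdgfra. Among 7 cartilage genes that act with Sox9, 1 was higher and 3 were lower, with a median of 0.13 against 0.15 over all genes. Of these, Col9a1 was 3.91-fold and Col11a1 4.77-fold lower, and Matn1 at least 26.7-fold higher. Col2a1 stood at 2.54 in gated and 2.31 in other GFP-positive cells, and Acan at -2.78 and -3.34. Sox10, which marks crest and glia, stood at -2.43 and -3.13 in gated and other GFP-positive cells, and Sox2, Prdm8, Neurog2 and Tfap2b were not well above background in either.

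**Figure D5:**
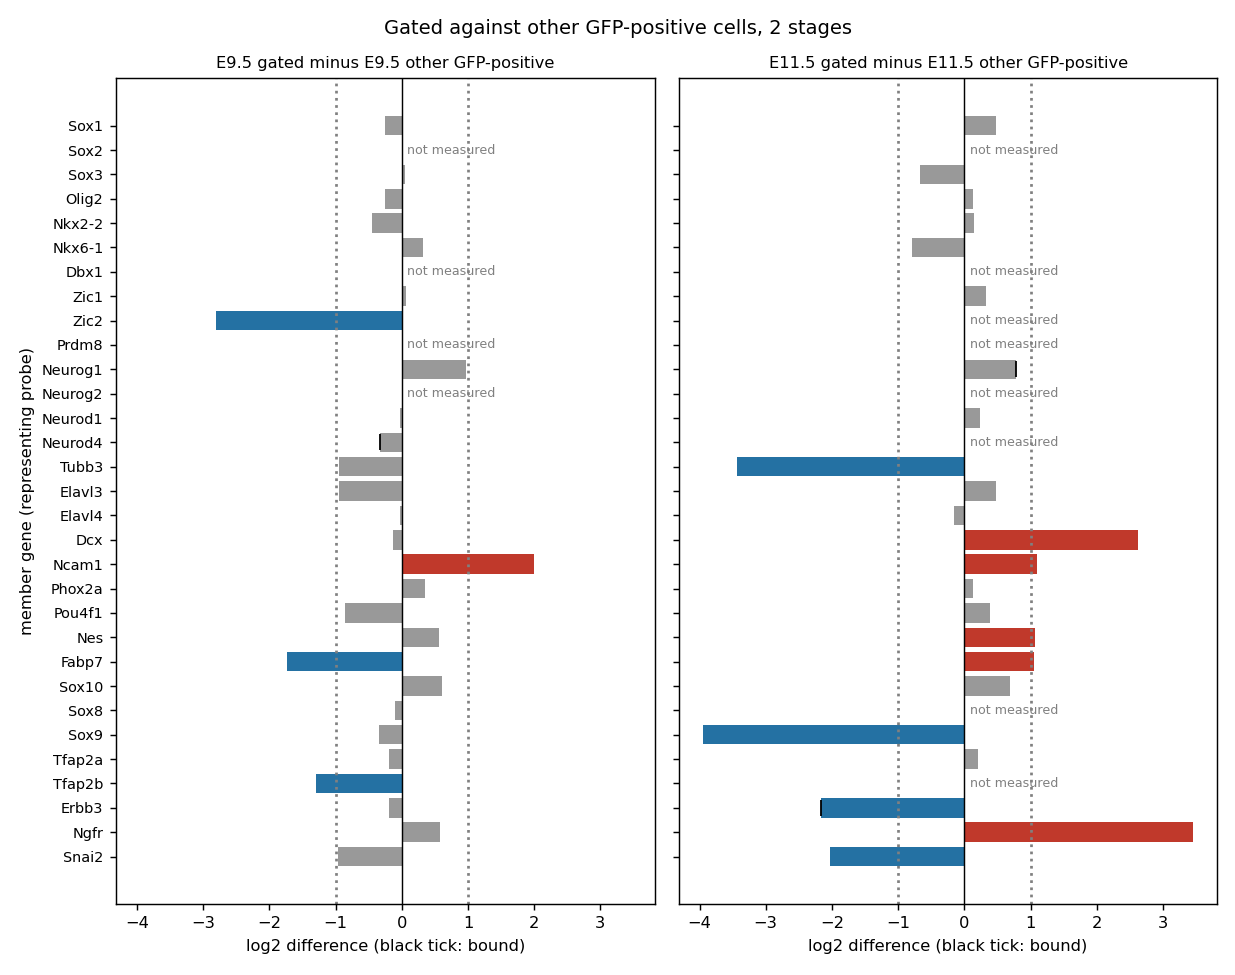
Log2 difference (x axis) of gated minus other GFP-positive cells at E9.5 (left) and E11.5 (right) for the representing probe of each of the 31 genes (y axis); red and blue bars are past 2-fold, grey bars are not, black ticks mark bounds and dotted lines 2-fold. Ncam1 lies at 2.0 and 1.10, and Fabp7 lies at -1.73 in the left and 1.06 in the right panel.

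Across the stages, the gated cells had 10 of 26 neural genes at least 2-fold lower at E11.5 than at E9.5 (11.9% of 21569 genes) and 2 higher (6.05%), with a median of -0.42 against -0.03. Dcx was 7.37-fold and Ngfr 5.13-fold higher. The lower ones were Tfap2b (at least 7.13-fold), Sox3 (6.03-fold), Zic2 (at least 5.47-fold), Sox8 (at least 5.09-fold), Sox9 (3.62-fold), Neurog1, Erbb3, Tfap2a, Pou4f1 and Phox2a. This count depended on the processing, with 2 higher and 2 lower under normexp and 2 higher and 6 lower under quantile normalization. The counts over all 21569 genes moved as well, to 462 higher and 574 lower and to 1788 and 2093, from 1306 and 2564. In the other GFP-positive cells 10 of 27 were lower at E11.5 (22.1% of 23710 genes) and 3 higher (6.37%), with a median of -0.51 against -0.36. Tubb3, Ncam1 and Sox9 were 3.04-fold, 2.35-fold and 3.34-fold higher. The lower ones were Zic2 (at least 36.0-fold), Tfap2b (at least 16.5-fold), Fabp7 (6.45-fold), Sox8 (at least 5.17-fold), Pou4f1 (5.09-fold), Sox3, Tfap2a, Elavl3, Neurog1 and Nkx2-2. Normexp gave 3 higher and 4 lower here, and quantile normalization 5 higher and 9 lower. Over all 23710 genes the counts were 714 higher and 1045 lower, and 2615 and 2325. Sox9 therefore differed in sign, -1.86 in gated and 1.74 in other GFP-positive cells, and the difference between the 2 was not tested. Stage and dissected region cannot be told apart in either comparison, nor, for the gated cells, whose 2 arrays lay on different slides, can the slide.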

How the data were processed

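Signal intensity was measured on 1 single-colour (Cy3) Agilent mouse array for each of 7 sorted populations. Per the submitters' processing notes, the authors used Agilent Feature Extraction, version 10.7.3.1. Per the file headers, the deposited intensity is the processed signal of each spot, background-subtracted and detrended on the linear scale and not scaled between arrays. Per the labels, 10 ng of RNA was amplified before labelling.

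Levels were computed as the mean log2 signal of a probe's unflagged spots minus the log2 of the 75th percentile over the non-control spots of the array, which was 253.8 (E8.5 GFP-positive), 230.7 (E8.5 GFP-negative), 262.4 (E9.5 gated), 258.7 (E9.5 other), 300.0 (E9.5 GFP-negative), 250.8 (E11.5 gated) and 290.4 (E11.5 other). In this order, 70.3%, 56.2%, 72.4%, 84.1%, 73.8%, 72.7% and 74.0% of spots were well above background. A probe counted as well above background if a share of 0.5 or more of its spots did, and a gene was measured in a comparison where at least 1 of its 2 arrays was. The lowest well-above levels, used as bounds, were -5.10, -3.46, -4.61, -4.62, -4.43, -5.12 and -5.04. Symbols came from the RefSeq table of GRCm38.p6 by transcript accession for 26425 probes and otherwise from the array files, 20323 probes had no gene name, and promoters came from RefSeq of the same build. The probe with the highest mean level over the arrays stood for its gene. The slide number in the files put 2 arrays of E9.5, gated and GFP-negative, on 1 slide and the other 5 on another, so 4 of the 8 comparisons crossed slides.

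All 31 genes are accounted for. From 12 further lists of 111 genes, up to 4 genes per list with the largest difference past 2-fold are named, if no other probe lay over 1 log2 unit on the opposite side. Snai1 and Twist1 are named besides, as the crest genes that went the other way. The 31 genes and the lists were chosen with earlier results of these data known. Alternatives were normexp background correction (offset 50, limma 3.58.1 in R 4.3.3) before the same scaling, quantile normalization alone, unscaled signals, no filter, both arrays well above background, the mean of all probes, a 4-fold threshold and, added after seeing the data, any probe of a gene. The spot SD as the measure of a moved value was also chosen then. Counting was tested on simulated data with 200 of 27126 genes changed by 2 log2 units, and 100.0% were recovered in each of the 8 comparisons. This covers spot noise alone. The changed genes all lay far above the lowest well-above level, so dim genes and bounds were not covered. Their change was also far larger than the spot noise, so full recovery was nearly certain and checks the counting steps only.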

Additional observations from a re-analysis of the deposited data

Results flagged for a closer look

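The difference between gated and other GFP-positive cells had opposite signs at E9.5 and E11.5, past 2-fold on both sides, for 2 genes. Fabp7 stood at -1.73 log2 units at E9.5 and at 1.06 at E11.5. Dcx stood at -1.21 and 3.06 on the probe starting at base 3396, at -1.10 and 2.14 on the probe starting at base 8435, and at -0.14 and 2.63 on the probe starting at base 3048, which was within 2-fold at E9.5.

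The difference between E11.5 and E9.5 likewise had opposite signs in the 2 GFP-positive populations. For Sox9 it was -1.86 in gated and 1.74 in other GFP-positive cells. For Dcx it was 2.19 and -1.05 on the probe starting at base 8435. On the other Dcx probes the other GFP-positive cells stayed within 2-fold, with 3.41 and -0.86 at base 3396 and 2.88 and 0.12, the same sign, at base 3048. The 2 gated arrays lay on different slides. Each population had 1 array, so none of these differences between stages or populations was tested.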

How the results depend on the processing

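No paired analysis was possible because each population had 1 array and no replicate number. No array was left out, since each population had 1. Of the 115 differences of single genes past 2-fold, none changed sign under normexp, quantile normalization, unscaled signals or the mean of probes, and 81, 106, 109 and 109 stayed past 2-fold. Genes with 1 probe have the same value under the last. The filter settings can only keep or enlarge such a difference, or leave it out, and are not counted here. Over all genes, normexp likewise left fewer past 2-fold in each of the 8 comparisons. The cause of the changes below was not tested, and smaller changes of a count or median are not all listed.

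For E8.5, 2 neural genes were higher and 5 lower. Normexp gave 3 lower, quantile normalization 1 higher, unscaled signals 3 lower, no filter 6 higher, 4-fold 1 higher and 3 lower, and any probe 8 lower. For gated against other GFP-positive cells of E9.5, with 1 higher, 3 lower and a median of -0.20, normexp gave a median of -0.037, quantile normalization 2 higher and -0.036, no filter 2 higher, the mean of probes 3 higher, 4-fold 1 lower, and any probe 3 higher and 5 lower. For gated against GFP-negative cells, with 1 higher, 21 lower and -1.76, normexp gave -1.22, unscaled signals -1.95, both arrays above background 16 lower of 26 and -1.29, quantile normalization 2 higher, any probe 2 higher, and 4-fold 0 higher and 13 lower. For other GFP-positive against GFP-negative cells, with 22 lower and a median of -1.56, normexp gave -1.15, quantile normalization -1.95, unscaled signals -1.77, both arrays above background 18 lower of 27 and -1.24, and the mean of probes -2.23.

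At E11.5, with 5 higher and a median of 0.24, normexp, unscaled signals and 4-fold gave 2 higher, and the median was 0.024 unscaled and 0.46 for the mean of probes. For GFP-negative cells of E9.5 against E8.5, with 25 of 31 higher and 1.98, both arrays above background gave 16 of 22 higher and 4-fold 15 of 31. The median was 1.28 with normexp, 2.36 unscaled, 2.26 without a filter and 2.26 for the mean of probes. For gated cells of E11.5 against E9.5, with 10 of 26 lower and -0.42, normexp gave 2 lower and -0.20, quantile normalization 6 and -0.27, both arrays above background 6 of 22 and -0.16, the mean of probes -0.68 and 4-fold 4 lower. For other GFP-positive cells, with 3 higher and 10 lower of 27 and -0.51, normexp gave 4 lower and -0.28, quantile normalization 5 higher, unscaled signals -0.35, both arrays above background 6 lower of 22 and -0.35, the mean of probes -0.76, and 4-fold 0 higher and 5 lower. Signal over background limits Dbx1, Prdm8 and Neurog2, read on 1 array each, to bounds.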
